A study of Pardosa pseudoannulata with 16 samples.

Results

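The 200 longest expressed RNA clusters of the wolf spider Pardosa pseudoannulata, a hunter of insects in rice fields, were followed across 4 groups of whole spiders named UH, UM, UL and Ck. A cluster is a sequence put together from RNA reads, here without a gene name. They were selected on 2 listed values, level and length: of 136360 clusters, the 36003 that reached 1 FPKM in 4 or more of the 16 libraries were kept, and the members are the 200 longest of these (ties by row order). FPKM counts sequenced fragments per kilobase, scaled by library depth, so levels can be compared between clusters of different length. The rule used the levels only to decide that a cluster was expressed, and it did not use the difference between any groups.

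The study exposed adult spiders taken from rice fields to urea, a nitrogen fertiliser, mixed into soil. Its design names 30 days of exposure and urea at 0, 200 or 400 mg/kg, so there are 3 concentrations and 4 groups. The labels give every library, Ck included, the same entry of urea treatment, so no group is given a concentration here and the groups are treated as unordered. Ck, a usual abbreviation of a control, was taken as the baseline; the labels do not spell it out. Each group had 4 libraries of poly-A selected RNA. The labels do not say whether replicates were separate animals, so the p-values reflect spread between libraries that may be technical. In whole animals, fewer cells of a type and less RNA per cell cannot be told apart.

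Very long animal mRNAs commonly code for giant proteins. Known examples are the titin-like spring proteins of muscle, the dynein heavy chains that drive transport along microtubules, linkers of the cytoskeleton, and large proteins of the extracellular matrix and the cuticle. In spiders the silk proteins are also long and repetitive. Long RNAs are the ones most easily broken, and with selection on the poly-A tail a break costs the part that lies upstream of it. An assembly can also join neighbouring transcripts into one long sequence, or split one transcript over several clusters. None of the 200 clusters carries a gene name, a function or a sequence in the data used here, so the roles of muscle, silk or transport proteins could not be assigned to any of them, and markers of tissues could not be checked.

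Libraries held an estimated 16.66 to 20.92 M (mega) fragments. Clusters above 0 numbered 76712 to 97015 per library, and Ck replicates 2 and 4 and UL replicate 3 were the only 3 libraries over 90000. The number in UH was 76712 to 78807, against 78216 to 83174 in UM, 77409 to 90373 in UL and 79811 to 97015 in Ck.

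The members were 10585 to 45289 bases long, with a median of 12149, against a median of 1227 bases over all tested clusters. Most lay close to the lower limit: 161 were at most 15000 bases long, 39 were longer than 15000 and 10 were longer than 20000. Of 212 clusters at or above the length of the shortest member, 94.3% passed the expression rule, against 26.4% of all clusters. All clusters had a median length of 599 bases and a median of 1.6 estimated fragments per library. Clusters are put together from RNA reads, so length and level are not independent and these shares do not describe long RNAs as such. The 12 long clusters that missed the rule averaged 0.249 to 0.659 FPKM and reached at most 1.66 FPKM in any library. At the length limit, the last members were Cluster-9253.50612 (10591 bases, mean level 5.29 FPKM), Cluster-9253.54368 (10587 bases, 0.911 FPKM) and Cluster-9253.52250 (10585 bases, 3.04 FPKM). The first clusters outside it were Cluster-9253.52147 (10578 bases, 7.76 FPKM), Cluster-9253.62272 (10563 bases, 1.86 FPKM) and Cluster-9253.81147 (10561 bases, 1993 FPKM). All 200 names share the first number, 9253, as do 98.3% of tested clusters.

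Nearly all members were present in every spider library. The level was at least 1 FPKM in all 16 libraries for 168 members, in 13 to 15 libraries for 18 and in 4 to 12 libraries for 14. Only 3 members were listed at 0 in 1 library or more, and 2 passed the expression rule through the libraries of a single group. Mean levels ran from 0.843 to 154 FPKM with a median of 5.59, above the 2.75 FPKM of all tested clusters. The mean was under 5 FPKM for 90 members, at least 20 FPKM for 30 and at least 50 FPKM for 13. Length gives such clusters many fragments: 1 FPKM on a cluster of the median member length is worth 197.9 to 248.5 estimated fragments. The median member was covered by 1243 estimated fragments per library and the median tested cluster by 53.5. The median standard error of a log2 fold change was 0.16 for members and 0.24 over all tested clusters.

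**Figure D1:**
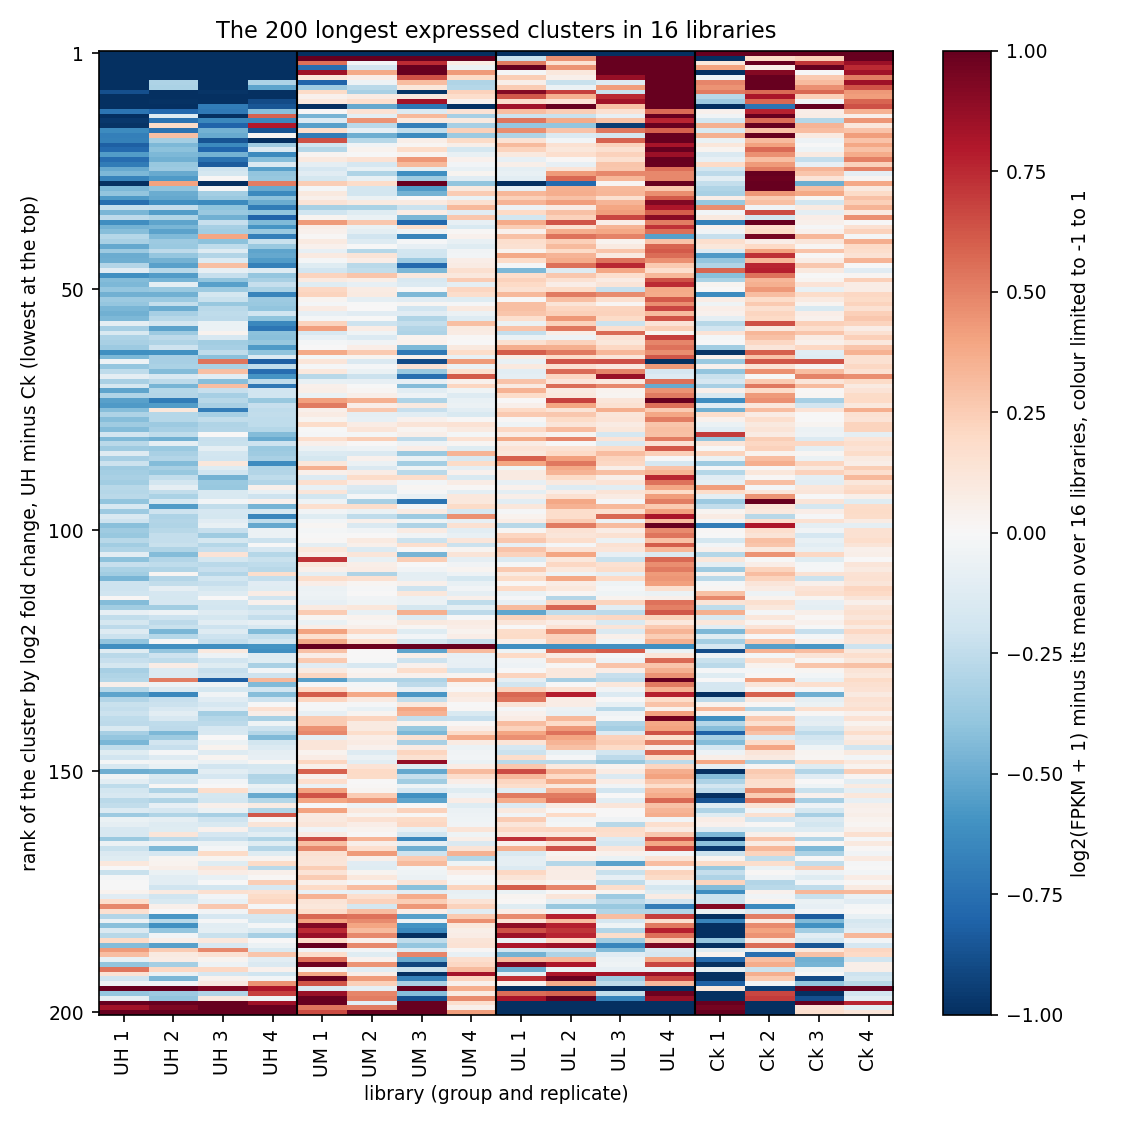
Level of each of the 200 clusters (rows, ordered by the log2 fold change of UH over Ck) in each library (columns, UH, UM, UL and Ck from left, replicates 1 to 4), as log2(FPKM + 1) minus the cluster's mean over 16 libraries, with the colour limited to the range -1 to 1. Most rows are below their mean in the UH columns, UL replicate 4 is above it in many rows, and a few rows at the bottom are low in UL and in Ck replicate 2.

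The longest cluster, Cluster-9253.47857 (45289 bases), had 12.06, 12.62, 16.67 and 11.63 FPKM in UH, 16.62, 14.72, 11.07 and 18.14 in UM, 15.86, 21.83, 21.37 and 20.49 in UL, and 13.53, 36.62, 20.95 and 18.11 in Ck. All groups overlapped, and Ck replicate 2 stood above every other library. Cluster-9253.49787 (39942 bases) had 53.37, 44.27, 62.14 and 37.64 FPKM in UH, 71.32, 58.13, 40.00 and 72.63 in UM, 56.29, 86.97, 88.72 and 55.71 in UL, and 30.91, 74.11, 72.15 and 62.40 in Ck, where replicate 1 was the lowest of all 16. Cluster-9253.48465 (26198 bases), the third longest, averaged 110 ± 43.8 FPKM in UH, 112 ± 39.7 in UM, 131 ± 60.9 in UL and 144 ± 43.7 in Ck (SD, n = 4 each). For these 3 giants the limma F test found no difference among the groups (adjusted p = 0.155, 0.505 and 0.795).

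Other clusters among the 8 longest had calls between pairs of groups. By the F test Cluster-9253.48682 passed (adjusted p = 0.0292) and Cluster-9253.49690 did not (0.0679). Cluster-9253.48682 (25332 bases) had 18.55, 20.51, 23.06 and 18.05 FPKM in UH and 23.46, 38.77, 34.15 and 38.10 FPKM in Ck, with no overlap (log2 fold change -0.70 ± 0.17, SE; limma adjusted p = 0.0207). Cluster-9253.49690 (20994 bases) varied little: it had 13.46 to 14.58 FPKM in UH, 16.65 to 17.23 in UM, 16.40 to 19.77 in UL and 15.12 to 18.09 in Ck. All its UH values lay below all others, by a small amount, and the difference passed against UL (log2 fold change -0.34 ± 0.10, limma adjusted p = 0.0161) and not against UM or Ck (adjusted p = 0.143 and 0.116).

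Cluster-9253.47096 (23201 bases) and Cluster-9253.47122 (22613 bases) had their highest levels in the same libraries. Cluster-9253.47096 had 1.94, 6.29, 2.11 and 11.03 FPKM in UH, 4.78 to 9.00 in UM, 5.88, 5.86, 6.54 and 30.62 in UL, and 6.78, 19.55, 7.40 and 7.25 in Ck. Cluster-9253.47122 had 1.01, 4.24, 0.96 and 4.24 FPKM in UH, 2.73 to 7.03 in UM, 5.76, 4.55, 4.93 and 24.47 in UL, and 8.09, 17.76, 7.06 and 10.69 in Ck. UL replicate 4 and Ck replicate 2 were the top libraries of both, and UH replicates 1 and 3 the lowest. Cluster-9253.47122 was lower in UH than in Ck (log2 fold change -1.80 ± 0.49, limma adjusted p = 0.0325), while the difference in Cluster-9253.47096 did not pass (-0.95 ± 0.54, adjusted p = 0.274). The F test passed in neither Cluster-9253.47122 (adjusted p = 0.0581) nor Cluster-9253.47096 (0.403). Whether these clusters share fragments was not tested.

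Fragments were concentrated on few members. The 6 best covered clusters took 32.8% of all fragments on the 200, and the 20 best covered 59.4%. By level, Cluster-9253.48245 (14988 bases) was first, with 154 FPKM on average over 16 libraries, and its values are given below with the clusters that were low in UL. The next were Cluster-9253.48138 (15656 bases, 133 FPKM), Cluster-9253.48465 (124 FPKM), Cluster-9253.48743 (18847 bases, 116 FPKM), Cluster-9253.47126 (12178 bases, 104 FPKM) and Cluster-9253.47599 (10641 bases, 93.9 FPKM). In none of these 5 did the F test pass (adjusted p = 0.0815, 0.795, 0.155, 0.272 and 0.255). Cluster-9253.48138 had 80.19, 85.54, 128.25 and 97.58 FPKM in UH and 118.35, 190.27, 160.22 and 177.84 FPKM in UL, overlapping at UH replicate 3. It was the single one of the 5 with a call, UH below UL (log2 fold change -0.72 ± 0.23, limma adjusted p = 0.0335).

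Most stable at a mean of at least 5 FPKM were Cluster-9253.46538 (13011 bases), Cluster-9253.48873 (12202 bases), Cluster-9253.45970 (14689 bases), Cluster-9253.49455 (11119 bases) and Cluster-9253.51271 (13479 bases). The SD of their log2(FPKM + 1) over 16 libraries was 0.13 to 0.14, against a median of 0.30 for members and 0.40 for all tested clusters. Cluster-9253.46538 averaged 8.57 ± 0.616 FPKM in UH, 9.47 ± 0.708 in UM, 9.42 ± 1.46 in UL and 9.46 ± 0.370 in Ck (SD, n = 4 each). Of the 5, 1 had a call: Cluster-9253.49455 averaged 8.72 ± 0.722 FPKM in UH and 10.8 ± 0.485 FPKM in UL, and was lower in UH (log2 fold change -0.28 ± 0.10 SE, limma adjusted p = 0.0423).

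A few long clusters were present in some groups and at or near 0 in others. Cluster-9253.50222 (11556 bases) was listed at 0 in all 12 UH, UM and UL libraries and had 9.54, 33.32, 12.59 and 13.37 FPKM in Ck. It passed the expression rule through Ck alone, so a difference from Ck came with its membership and is given without a test. A value rounded to 0 on a cluster of about this length stands for at most about 1 fragment, 1.08 on the shortest member.

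Cluster-9253.34049 (12303 bases) stood out in UM. It had at most 0.01 FPKM in UH, 3.82, 2.01, 3.73 and 5.54 FPKM in UM, was listed at 0 in every UL library, and had 0.36, 0.04, 0.02 and 0.32 FPKM in Ck. All UM values lay above all others, and the mean in UM was 20.4 times that in Ck. This cluster passed the expression rule through UM alone, so its difference from the other groups is likewise given without a test. With Cluster-9253.50222 it is counted below among the members called, where both came with the rule.

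Cluster-9253.41344 (13206 bases) was off in UH alone: it had 0.01, 0, 0.01 and 0 FPKM in UH, 1.08, 2.09, 6.19 and 2.38 in UM, 6.62, 3.81, 7.74 and 12.85 in UL, and 3.65, 2.66, 6.90 and 4.92 in Ck. UH lay below every other library, and the differences from Ck, UM and UL passed (limma adjusted p = 0.00216, 0.0164 and 0.000182). That from UM was lost without UH replicate 1 (adjusted p = 0.0501). Cluster-9253.73442 (11840 bases) had 0.06, 0.02, 0.49 and 0.34 FPKM in UH, 0.16 to 0.70 in UM, 3.33, 4.03, 1.97 and 53.75 in UL, and 0.18, 0.46, 7.39 and 2.76 in Ck. UL replicate 4 alone made up most of the UL mean. No UH or UM library reached 1 FPKM, and without the UL libraries the cluster would not have passed the expression rule. Its difference of UH from UL is therefore given without a test. The log2 fold change was -2.67, and -1.73 without UL replicate 4. It is counted below among the falls of UH against UL, a call that was lost with no filter on low values.

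**Figure D2:**
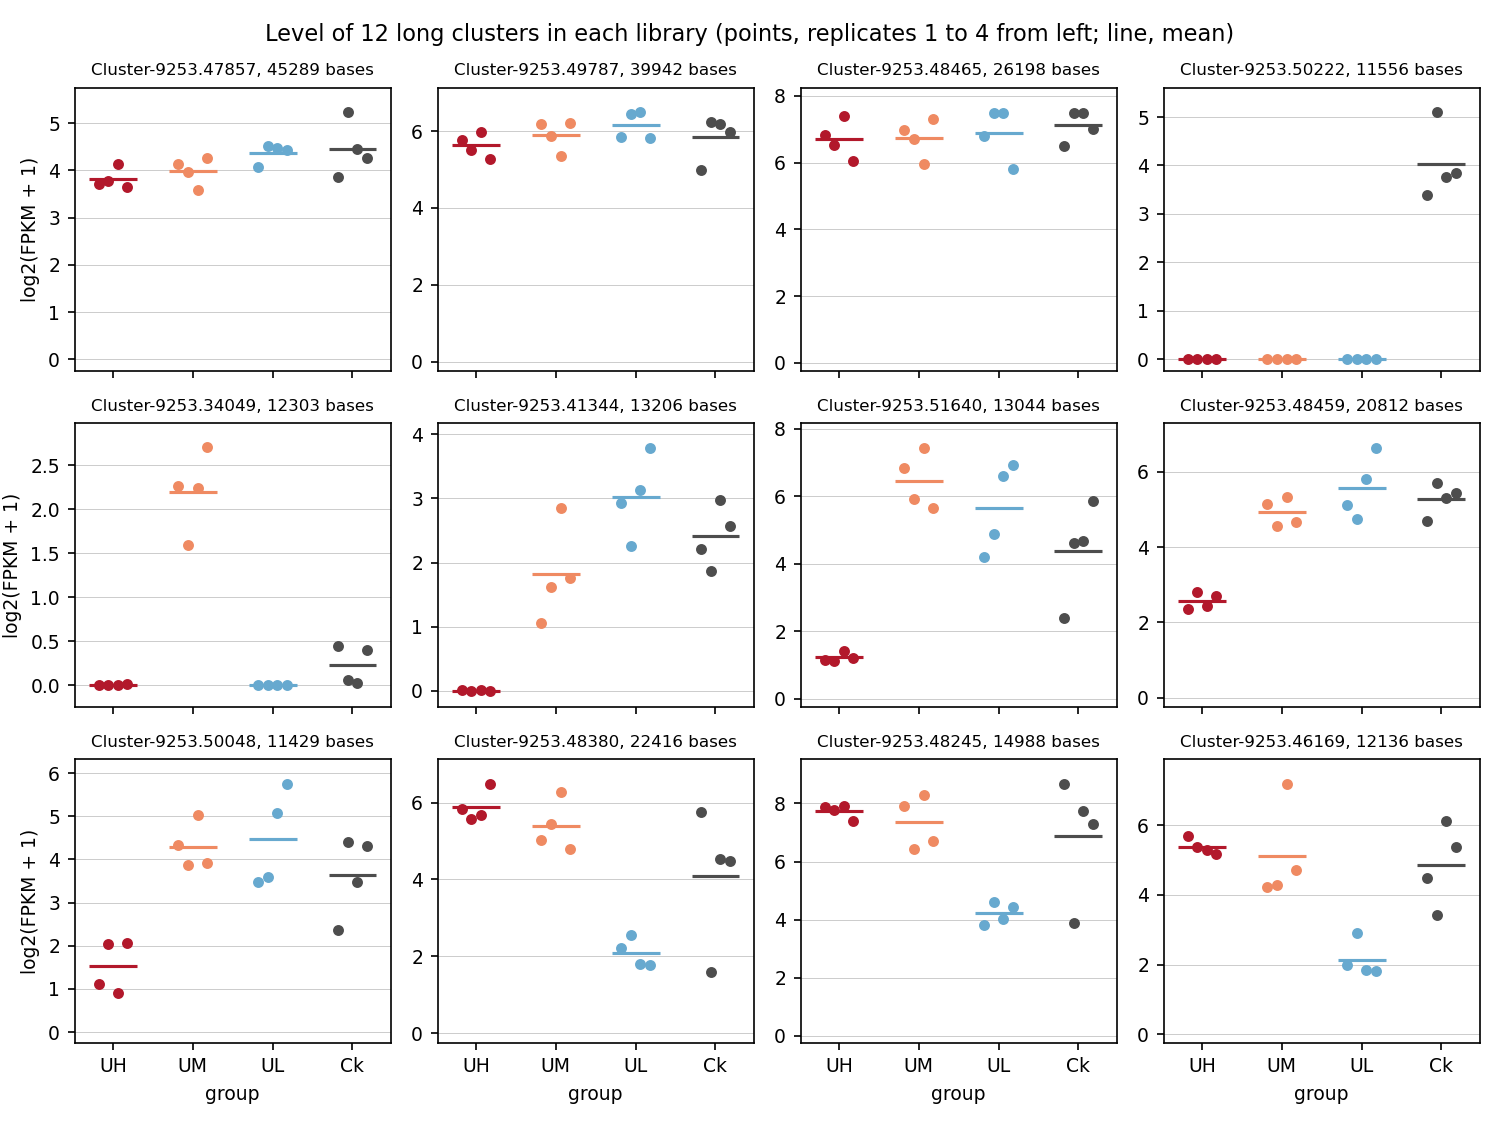
Level of 12 clusters as log2(FPKM + 1) (vertical axes, each with its own range) in UH, UM, UL and Ck; points are libraries, replicates 1 to 4 from left, and lines are group means. The 3 longest clusters overlap among groups, Cluster-9253.50222 is at 0 outside Ck, Cluster-9253.34049 stands out in UM, 4 clusters are lowest in UH, and the last 3 are low in UL and in Ck replicate 2.

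UH against Ck asks how the level of long RNAs in UH differed from the baseline. Lower levels prevailed: 44 of 200 members were called in limma, of which 0 rose and 44 fell. Over all tested clusters 11.2% were called, 3.39% higher and 7.86% lower. In the longest of 10 length bands of tested clusters (4317 to 45289 bases, the members among them) 18.6% were called. In all 44 the UH and Ck values did not overlap. Over all members 80 had no overlap, 80 of them lower and 0 higher, where 17.1% of all tested clusters had none, 13.4% lower and 3.67% higher. The median log2 fold change was -0.29 for the members and -0.15 for all tested clusters, and 98 of the 200 members had an unadjusted p under 0.05, against 27.5% of all tested clusters. Most falls were small, with a median of -0.61, 11 of at least 1 on the log2 scale and 16 under 0.5.

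The largest falls included Cluster-9253.51640, Cluster-9253.48459 and Cluster-9253.50048. Cluster-9253.48459 (20812 bases) had 4.11, 6.06, 4.39 and 5.48 FPKM in UH and 25.09, 50.77, 38.52 and 42.71 FPKM in Ck. Its UH mean was 0.128 of the Ck mean (log2 fold change -2.71 ± 0.34, limma adjusted p = 0.000737). Cluster-9253.51640 (13044 bases) had 1.22, 1.16, 1.68 and 1.30 FPKM in UH and 4.21, 23.64, 24.33 and 57.10 FPKM in Ck (log2 fold change -3.16 ± 0.69, adjusted p = 0.0139). Here the UH libraries were alike and the Ck libraries differed widely. Cluster-9253.50048 (11429 bases) had 1.16, 3.10, 0.88 and 3.17 FPKM in UH and 4.18, 20.07, 10.13 and 18.99 FPKM in Ck (log2 fold change -2.11 ± 0.55, adjusted p = 0.0274). Its call was lost without UH replicates 1 or 3 or Ck replicates 2, 3 or 4 (highest adjusted p 0.0762).

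The number of members called between UH and Ck rested on several libraries. Among UH libraries, leaving out replicate 1 gave 20 calls, replicate 2 gave 27 and replicate 4 gave 29. Among Ck libraries, leaving out replicate 2 gave 26 calls and replicate 4 gave 21. Leaving out the 3 libraries with over 90000 clusters above 0 gave 8. Under that last setting Cluster-9253.51640 was lost (adjusted p = 0.13) and so was Cluster-9253.50048 (0.277). After median ratio scaling, which moved the median of all tested clusters to -0.00, the members' median was -0.12 and 22 were called, 1 that rose and 21 that fell. All 44 members kept a negative fold change under that scaling.

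UH against UM again gave lower levels in UH. Limma called 13 members, 0 that rose and 13 that fell, where 2.82% of all tested clusters were called, 0.278% higher and 2.55% lower. In the longest length band (4317 to 45289 bases) 4.67% were called. In 66 members the values of UH and UM did not overlap, 65 lower and 1 higher, against 16.4% of tested clusters, 14.6% lower and 1.79% higher. Cluster-9253.51640 had 114.10, 59.43, 169.74 and 49.29 FPKM in UM, so that the UH mean of 1.34 FPKM was 0.0137 of the UM mean (log2 fold change -5.24 ± 0.69, limma adjusted p = 0.00142). Cluster-9253.48459 had 34.41, 22.73, 39.53 and 24.36 FPKM in UM, and UH over UM was -2.36 ± 0.34 on the log2 scale (adjusted p = 0.0025). The UM values of Cluster-9253.50048 were 19.13, 13.55, 31.69 and 14.02 FPKM (UH over UM, log2 fold change -2.75 ± 0.55, adjusted p = 0.0168), a call that was lost without UH replicates 1 or 3 or UM replicate 3 (highest adjusted p 0.0581). The members' median log2 fold change was -0.25, against -0.19 for all tested clusters, and after median ratio scaling it was -0.02, against 0.00. Leaving out UH replicate 1 gave 4 calls, and leaving out UH replicate 2, UH replicate 3, UM replicate 3 or UM replicate 4 gave 8. The count was 7 after median ratio scaling and 50 with limma's library weights.

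UH against UL separated the most members, 100 of 200, of which 6 rose and 94 fell. Of all tested clusters 28.7% were called, 8.87% higher and 19.9% lower. The share called in the longest length band (4317 to 45289 bases) was 47.5%, close to that of the members. In 119 members the values of UH and UL did not overlap, 110 lower and 9 higher, against 29.6% of tested clusters, 20.5% lower and 9.02% higher. The falls were mostly small, with a median log2 fold change of -0.61, 15 of at least 1 and 23 under 0.5. The members' median was -0.48, against -0.27 for all tested clusters. Median ratio scaling moved these medians to -0.19 and -0.04 and left 46 calls, 11 that rose and 35 that fell. Of the 94 falls, 92 kept a negative fold change under that scaling. Cluster-9253.48459 had 33.65, 25.83, 55.24 and 98.14 FPKM in UL, so that the UH mean was 0.0942 of the UL mean (log2 fold change -3.00 ± 0.34, limma adjusted p = 0.000138). Cluster-9253.51640 had 17.45, 28.59, 96.48 and 119.26 FPKM in UL (UH over UL, log2 fold change -4.43 ± 0.69, adjusted p = 0.000802), and Cluster-9253.50048 had 10.07, 11.02, 32.77 and 52.76 FPKM (-2.94 ± 0.55, adjusted p = 0.00198). In all 3 clusters UL replicate 4 was the highest UL library. Leaving out single UH or UL libraries gave 80 to 114 calls.

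Cluster-9253.47280 (13817 bases) was among the 5 members with the smallest p in the F test (adjusted p = 0.00058). Its values were tight in UH (4.65, 5.08, 5.53 and 5.56 FPKM) and UM (12.98, 13.36, 13.55 and 14.34). They were wider in UL (19.93, 16.41, 21.93 and 30.41) and Ck (10.21, 22.93, 15.01 and 17.14). UH lay below all other libraries and UL above all UM libraries. UH was lower than Ck, UM and UL (log2 fold changes -1.43 ± 0.21, -1.23 ± 0.21 and -1.87 ± 0.21, limma adjusted p = 0.00176, 0.0065 and 0.000104). The other 4 with the smallest p were Cluster-9253.50222, Cluster-9253.34049, Cluster-9253.48459 and Cluster-9253.41344. Cluster-9253.50222 and Cluster-9253.34049 passed the expression rule through a single group, so their place in this ranking came with their membership.

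A set of long clusters ran against this trend and was low in UL. Cluster-9253.48380 (22416 bases) had 56.38, 46.81, 49.76 and 88.51 FPKM in UH, 31.51, 42.83, 76.88 and 26.54 in UM, 3.66, 4.93, 2.47 and 2.45 in UL, and 53.09, 2.04, 22.22 and 21.43 in Ck. Cluster-9253.48245 had 234.43, 215.59, 238.37 and 167.43 FPKM in UH, 242.90, 86.14, 315.57 and 104.34 in UM, 12.98, 23.36, 15.16 and 20.68 in UL, and 404.79, 13.63, 210.74 and 157.52 in Ck. UL was the low group in both, and Ck replicate 2 sat at the UL level while the other Ck libraries lay above all UL libraries.

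Cluster-9253.46169 (12136 bases) and Cluster-9253.48310 (11937 bases) were also low in UL. Cluster-9253.46169 had 51.21, 40.21, 38.14 and 35.12 FPKM in UH, 17.68, 18.54, 144.37 and 25.51 in UM, 2.97, 6.48, 2.58 and 2.53 in UL, and 21.32, 9.76, 68.24 and 40.22 in Ck. Cluster-9253.48310 had 16.22, 17.33, 19.02 and 32.03 FPKM in UH, 12.93, 12.81, 25.94 and 8.95 in UM, 2.37, 3.54, 1.55 and 2.19 in UL, and 17.66, 1.28, 9.52 and 7.97 in Ck. Again Ck replicate 2 was the lowest Ck library. UH was higher than UL in each of the 4, with ratios of means of 17.9 for Cluster-9253.48380, 11.9 for Cluster-9253.48245, 11.3 for Cluster-9253.46169 and 8.77 for Cluster-9253.48310. The log2 fold changes were 3.80 ± 0.64, 3.52 ± 0.76, 3.25 ± 0.62 and 2.68 ± 0.50 (limma adjusted p = 0.00118, 0.00438, 0.00227 and 0.00196). A further rise of UH over UL was small: Cluster-9253.44525 (11519 bases) averaged 4.25 ± 0.966 FPKM in UH and 2.70 ± 0.328 in UL (log2 fold change 0.49 ± 0.14, adjusted p = 0.0165), and this call was lost without UH replicate 1 (0.0534), with no filter on low values (0.0628) and when only UH and UL entered limma (0.0635). UH and UL overlapped in this cluster, at UH replicate 4.

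UM against UL called 5 members, of which 5 rose and 0 fell, where 3.22% of all tested clusters were called, 2.62% higher and 0.594% lower. They were Cluster-9253.34049, described above, and the same 4 clusters that were low in UL. The log2 fold changes of UM over UL were 3.29 ± 0.64 for Cluster-9253.48380, 3.13 ± 0.76 for Cluster-9253.48245, 2.97 ± 0.62 for Cluster-9253.46169 and 2.17 ± 0.50 for Cluster-9253.48310 (limma adjusted p = 0.028, 0.04, 0.0286 and 0.0339). These 4 calls lay near the threshold. That on Cluster-9253.48245 was lost with any 1 of the 8 libraries left out, that on Cluster-9253.48310 with any except UM replicate 4, and those on Cluster-9253.48380 and Cluster-9253.46169 with any except UM replicates 2 and 4 (highest adjusted p 0.138, 0.124, 0.101 and 0.0904). Their fold changes stayed large in those fits, 2.99 to 3.49 for Cluster-9253.48380, 2.81 to 3.44 for Cluster-9253.48245, 2.27 to 3.26 for Cluster-9253.46169 and 1.89 to 2.37 for Cluster-9253.48310. When only UM and UL entered limma the adjusted p was 0.00221, 0.00507, 0.037 and 0.00612 in that order. The count of calls was 1 without UM replicates 1 or 3 or any 1 UL library and 3 without UM replicate 2. The members' median log2 fold change between UM and UL was -0.22, against -0.07 for all tested clusters. Values of UM and UL did not overlap in 41 members, 8 higher and 33 lower, against 13.5% of tested clusters, 8.16% higher and 5.31% lower.

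UM against Ck called 2 members, 1 that rose (Cluster-9253.34049) and 1 that fell (Cluster-9253.50222), where 0.1% of all tested clusters were called, 0.05% in each direction. Both are the members that passed the expression rule through the group where they are high, so the count says nothing on the other members. Values did not overlap in 15 members, 2 higher and 13 lower, against 6.43% of tested clusters, 3.7% higher and 2.73% lower. At an unadjusted p under 0.05 there were 15 members (7.5%), against 11.5% of all tested clusters. The members' median log2 fold change was -0.03, against 0.06 for all tested clusters. Cluster-9253.51640 had the largest fold change among members that did not pass, 98.1 ± 55.6 FPKM in UM and 27.3 ± 21.9 in Ck (SD, n = 4 each; log2 fold change 2.08 ± 0.69, limma adjusted p = 0.31).

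UL against Ck called 1 member, Cluster-9253.50222, which fell, where 0.0167% of all tested clusters were called, 0.00278% higher and 0.0139% lower, and 29 members (14.5%) had an unadjusted p under 0.05, against 16.8% of all tested clusters. That 1 member passed the expression rule through Ck alone, so its call came with its membership. The median log2 fold change was 0.15 for the members and 0.10 for all tested clusters, with 157 of the 200 (78.5%) above 0, against 61.9% of all tested clusters. Values did not overlap in 12 members, 8 higher and 4 lower, against 4.96% of tested clusters, 3.51% higher and 1.45% lower. Ck replicate 2 set the count of calls. Without it 8 members were called, 3 that rose and 5 that fell, and the falls were Cluster-9253.50222 and the same 4 clusters that were low in UL. Cluster-9253.48245 then had a log2 fold change of -3.68 ± 0.43 (limma adjusted p = 0.000287) and Cluster-9253.48380 one of -2.84 ± 0.39 (0.00074). Without that library Cluster-9253.46169 had -3.18 ± 0.60 (0.00529) and Cluster-9253.48310 had -1.85 ± 0.35 (0.0049). With all 4 Ck libraries their adjusted p was 0.189, 0.192, 0.176 and 0.241 in the same order. Ck replicate 2 was the lowest Ck library in each of these 4 clusters. The p-values without it therefore rest on leaving out the Ck value nearest to UL. Without the 3 libraries with over 90000 clusters above 0, 30 members were called, 25 that rose and 5 that fell. The median log2 fold change was then 0.30 for the members and 0.22 for all tested clusters. The share of all tested clusters called is not given for either refit, so neither count is read as particular to long clusters.

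**Figure D3:**
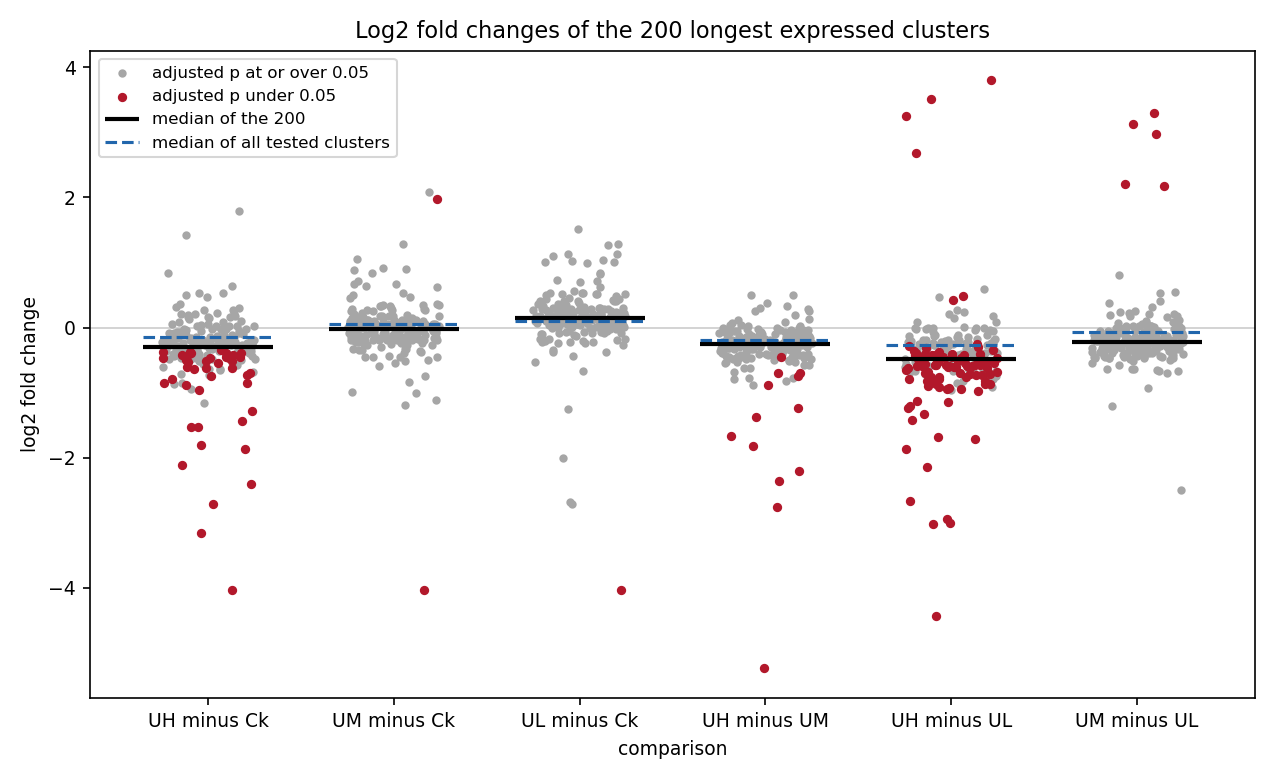
Log2 fold change (vertical axis) of each of the 200 clusters in 6 comparisons; red points had a limma adjusted p under 0.05, the black line is the median of the 200 and the dashed line that of all tested clusters. The red points are almost all below 0 in the comparisons of UH, and the 4 high points of UH minus UL and 4 of the 5 of UM minus UL are the clusters that were low in UL; a point of a cluster listed at 0 in a group depends on the pseudocount of 1.

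Taking the 4 groups at once, the limma F test called 71 of 200 members (35.5%), where 18.9% of all tested clusters were called. The count was 32 after median ratio scaling, 33 with no filter on low values and 109 with limma's library weights. It was 38 without UH replicate 1, 39 without UH replicate 2 and 47 without UH replicate 4. In 50 members (25.0%) all 4 UH values lay below all 12 values of the other groups, against 6.21% of tested clusters, and in 0 members they lay above, against 0.678%. All counts of values without overlap are as deposited and were not taken after median ratio scaling. The factors of that scaling were 0.84 to 0.90 in UH and 0.93 to 1.23 in the other libraries. Members were more abundant than most clusters. Among 10417 shorter tested clusters with a mean within the members' quartiles (3.27 to 12.0 FPKM), a set chosen after the data were seen, 24.5% were called in the F test and 14.3% between UH and Ck. The corresponding share of members between UH and Ck was 22.0%. All UH values lay below all Ck values in 17.6% of these shorter clusters and in 40.0% of members. Between UH and UL 37.3% of these shorter clusters were called.

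In every comparison except UL over Ck the 200 members had a lower median fold change than each length band of the tested clusters. Tested clusters were cut by length into 10 bands of near equal size, and in UH over Ck the median log2 fold change was -0.12 in the seventh band (1646 to 2172 bases, the highest of the 10), -0.21 in the longest band (4317 to 45289 bases, the members among them) and -0.29 in the 200 members. In UH over UL these medians were -0.27, -0.40 and -0.48. In UM over UL they were -0.06, -0.16 and -0.22, and in UH over UM they were -0.18, -0.23 and -0.25. In UL over Ck these 3 medians differed less, 0.12, 0.14 and 0.15, with the members highest. In UM over Ck they were 0.09, 0.01 and -0.03. Median ratio scaling left the order of these 3 medians as it was in UH over Ck (0.04, -0.05 and -0.12), UH over UL (-0.03, -0.14 and -0.19), UM over UL (-0.01, -0.11 and -0.16), UM over Ck (0.04, -0.04 and -0.08) and UH over UM (0.03, -0.01 and -0.02). Clusters in the longest band also had more fragments (median 499 per library) than those of the seventh (108.9). Over all 10 bands the change with length was not steady. As deposited, the shortest band lay below the seventh in UH over Ck (-0.15), UM over Ck (0.01) and UL over Ck (-0.0002). It lay above the seventh in UH over UL (-0.15), UM over UL (0.00) and UH over UM (-0.15). After scaling, UH over Ck was -0.05 in both the shortest and the longest band.

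**Figure D4:**
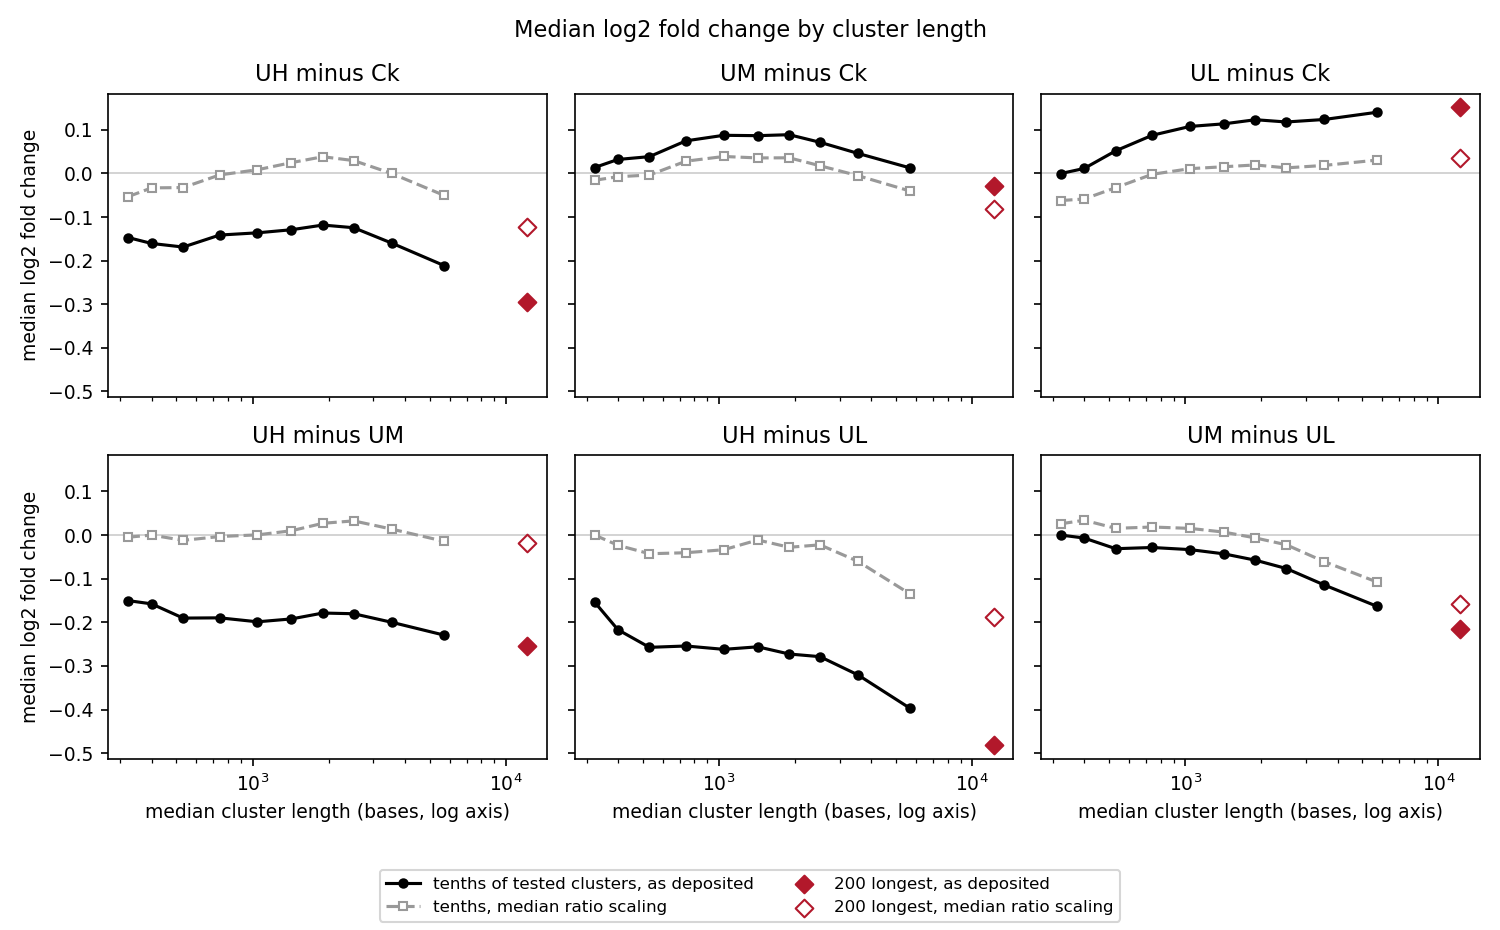
Median log2 fold change (vertical axis) against the median length (log axis, bases) of 10 length bands of the tested clusters, for 6 comparisons; diamonds are the 200 longest. Filled symbols are values as deposited and open symbols after median ratio scaling, and in each comparison except UL minus Ck the diamonds lie lowest under both.

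As a sum, the members took 3.28, 3.16, 3.90 and 3.09% of the estimated fragments in UH, 4.37, 3.73, 3.93 and 4.10% in UM, 3.78, 4.72, 4.67 and 5.00% in UL, and 3.61, 5.31, 4.45 and 4.30% in Ck. The means were 3.36 ± 0.37% in UH, 4.03 ± 0.27% in UM, 4.54 ± 0.53% in UL and 4.42 ± 0.70% in Ck (SD, n = 4 each). UH overlapped each of the other groups, through UH replicate 3 in all 3 cases. The median member had 3.85 to 4.38 FPKM in UH libraries, 5.07 to 6.07 in UM, 5.61 to 8.14 in UL and 4.53 to 6.39 in Ck, so as deposited no UH library reached any other library. After median ratio scaling the groups overlapped, with 4.55 to 5.21 in UH, 5.01 to 5.63 in UM, 5.07 to 6.63 in UL and 4.86 to 6.10 in Ck. The mean fragment length estimated from the values was 267.5 to 292.5 bases in UH, 262.5 to 284.0 in UM, 259.5 to 294.0 in UL and 257.5 to 272.0 in Ck. Whether fragment length or the number of clusters detected had a part in the lower levels of long clusters in UH was not tested.

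**Figure D5:**
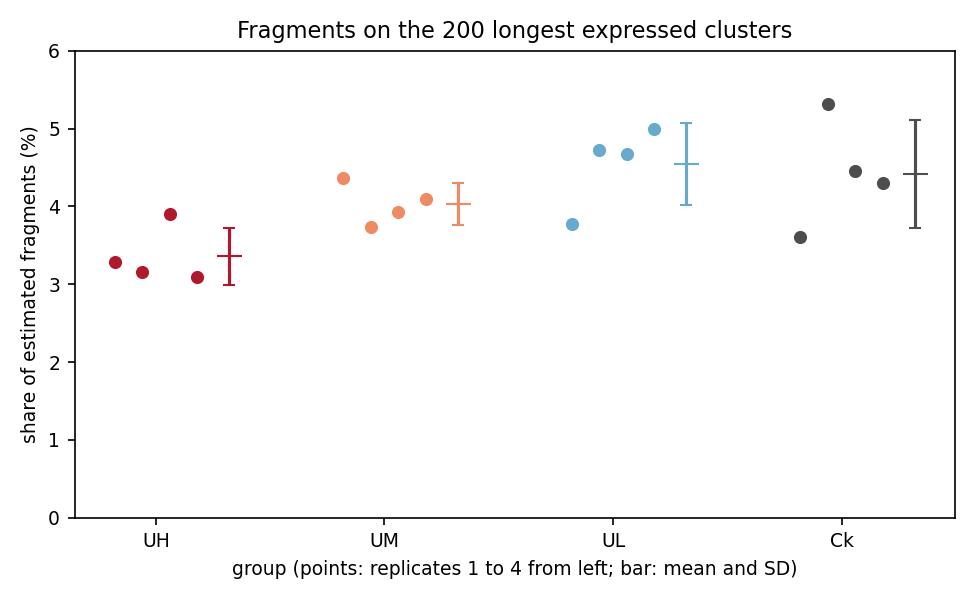
Share of each library's estimated fragments that lay on the 200 clusters (vertical axis, %), for UH, UM, UL and Ck; points are replicates 1 to 4 from left and bars the mean with SD. UH libraries lie between 3.09 and 3.90%, and Ck libraries spread from 3.61 to 5.31%.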

How the data were processed

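Per the labels' protocols, poly-A RNA of whole spiders was reverse transcribed from random hexamers for Illumina sequencing. The authors' deposited values are FPKM with 2 decimals. No assembler, aligner or counter is named in the sources used here, and mm10, a mouse build, is the one build in the submitters' processing notes. The deposited cluster length was taken to be in bases. The members and lists were chosen with earlier results of these data known.

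Depth and mean fragment length were estimated from low values, which fall on whole multiples of 1 fragment. The estimates were those that brought low values closest to whole numbers. With them 98.9 to 99.2% came out within 0.1 of a whole number, on largely the same values, so this is no separate check. Rounding to 0.01 FPKM limits low values.

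All 16 libraries were fitted in limma 3.58.1 (R 4.3.3) on log2(FPKM + 1) with a mean-variance trend and 12 residual degrees of freedom. The pseudocount of 1 makes log2 fold changes of low clusters too small. The 6 comparisons were two-sided, with Benjamini-Hochberg adjustment over 36003 clusters and a threshold of 0.05; the F test took the 3 contrasts with Ck. Both searches were tested on simulated data. Named were the 8 longest members, 3 on each side of the length limit, the 6 most abundant, up to 5 called per direction and comparison, the 5 smallest p in the F test, on-off members (listed at 0 in all libraries of a group, or lowest library under 0.1 and highest at least 5 FPKM), the 5 steadiest and the 3 widest in Ck (Cluster-9253.51640, Cluster-9253.48380 and Cluster-9253.48245). Alternatives are listed in the closing section.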

Additional observations from a re-analysis of the deposited data

Results flagged for a closer look

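In groups of 4, a library was singled out when its gap to the nearest other one passed Dixon's 95% limit for the group's range. For normal values in groups not selected, chance gives about 1 in 20, and 13 of 140 groups met the limit. Some clusters here were named for a wide spread or a large change. Groups listed wholly at 0 cannot meet the limit, so the 13 cannot be judged against that rate. UL replicate 4 stood high in Cluster-9253.47096 (30.62 FPKM, others 5.86 to 6.54), Cluster-9253.47122 (24.47 FPKM, others 4.55 to 5.76) and Cluster-9253.73442 (53.75 FPKM, others 1.97 to 4.03). Ck replicate 2 stood high in Cluster-9253.47096 (19.55 FPKM, others 6.78 to 7.40), Cluster-9253.48138 (252.29 FPKM, others 118.04 to 140.30) and Cluster-9253.50222 (33.32 FPKM, others 9.54 to 13.37). In Cluster-9253.46169, UM replicate 3 had 144.37 FPKM (others 17.68 to 25.51) and UL replicate 2 had 6.48 FPKM (others 2.53 to 2.97). In Cluster-9253.34049, UH replicate 4 had 0.01 FPKM and the other UH libraries were listed at 0, a difference at the rounding step. The remaining gaps were small in FPKM: UL replicate 3 in Cluster-9253.44525 (2.21, others 2.82 to 2.93), UM replicate 3 in Cluster-9253.45970 (9.18, others 8.40 to 8.44), Ck replicate 4 in Cluster-9253.49455 (9.83, others 8.53 to 8.63) and UH replicate 1 in Cluster-9253.51271 (7.16, others 8.02 to 8.04).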

How the results depend on the processing

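Numbers of members called were recomputed under each alternative. Shares of all tested clusters called are not given for these settings, so the counts show only how far the calls rest on the setting. With 1 library left out they ran from 20 to 57 for UH against Ck (44 with all), 4 to 12 for UH against UM (13), 80 to 114 for UH against UL (100), 2 to 2 for UM against Ck (2), 1 to 8 for UL against Ck (1), 1 to 4 for UM against UL (5) and 38 to 76 for the F test (71). With no filter on low values they were 16 (UH against Ck), 8 (UH against UM), 1 (UM against UL) and 33 (F test). In that setting more clusters enter both the fit and the adjustment. Median ratio scaling gave 22 (UH against Ck), 7 (UH against UM), 46 (UH against UL) and 32 (F test). Array weights gave 77 (UH against Ck), 50 (UH against UM), 4 (UL against Ck), 9 (UM against UL) and 109 (F test). Fits of the 2 groups alone, with fewer libraries, gave 18 (UH against Ck), 20 (UH against UM), 1 (UM against Ck) and 0 (UL against Ck). Limma voom on estimated fragments gave 23 for UH against UM. Without the 3 libraries with over 90000 clusters above 0, a setting chosen after seeing the data, they were 8 (UH against Ck), 5 (UM against Ck), 30 (UL against Ck) and 8 (UM against UL). For the missing filter, array weights, voom and scaling the cause was not tested. A pseudocount of 0.1 kept each count within 1.5 times. For single clusters, direction was followed only in the calls of the named members (up to 5 per direction and comparison), and none of these reversed. Members named for other reasons were not followed. With the 100 or the 400 longest clusters, or with 5 FPKM in place of 1 FPKM in the rule, 26.0, 23.2 and 24.5% were called between UH and Ck, against 22.0% of the 200.

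Replicate numbers recur in all groups, but libraries with the same number did not deviate together (correlations -0.28 to 0.26, median -0.02, over 24 pairs, and 4 of 16 libraries correlated best with their own number). With the replicate number as a block 40 members were called for UH against Ck, 13 for UH against UM, 96 for UH against UL, 2, 1 and 5 for UM against Ck, UL against Ck and UM against UL, and 62 in the F test.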

Other observations

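Single libraries set the extremes of many long clusters. UL replicate 4 was the highest of the 16 libraries in 98 of 200 members and the highest UL library in 130, Ck replicate 2 was the highest Ck library in 116, and Ck replicate 1 was the lowest Ck library in 129. UH replicate 1 was the lowest of the 16 in 57 members and Ck replicate 1 in 37. Shares over all tested clusters were not taken, so these extremes are not shown to be particular to long clusters. The factors of median ratio scaling, over 28290 clusters, were highest in UL replicate 4 (1.23). Of the Ck libraries replicate 1 had the lowest factor (0.93), and replicate 2 (1.05) lay below replicate 4 (1.08). UH replicate 1 had 0.85 and UH replicate 3 had 0.84. Within groups, the median SD of log2(FPKM + 1) over the members was 0.14 in UH, 0.19 in UM, 0.23 in UL and 0.23 in Ck, below the 0.26, 0.28, 0.32 and 0.33 of all tested clusters in the same order.

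Just under the length limit, Cluster-9253.81147 (10561 bases) was more abundant than any member, with 1283.69, 1232.88, 1837.05 and 1269.15 FPKM in UH and 1693.65, 4313.34, 2328.71 and 1709.49 FPKM in Ck. Ck replicate 2 was again its highest library, and the groups overlapped (log2 fold change -0.74, limma adjusted p = 0.127).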
